A study of Mus musculus with 19 samples.

Results

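Heat shock proteins and J-domain cochaperones were taken from the array's own gene names. They comprised every gene named Hspa, Hspb, Hspd, Hspe or Hsph with a number, every Hsp90 gene, and every Dnaja, Dnajb or Dnajc gene with a number. The array held 69 such genes among 30214 named genes: 12 of the Hsp70 class, 1 of the Hsp110 class, 3 of the Hsp90 class, 2 chaperonin genes, 8 small heat shock proteins, and 4 class A, 13 class B and 26 class C J-domain genes. The classes follow the gene names alone. Hspa4 and Hspa4l, called Hsp110-type below, are thus counted in the Hsp70 class, and Hspb11 is counted as a small heat shock protein by name only. Of these, 64 passed the filter on dim probes, which asked for a signal well above background on 4 or more of the 19 arrays, and were tested. Dnajb13, Dnajb7, Dnajc22, Dnajc6 and Hspa12a reached that signal on 0 to 3 arrays and were not tested.

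Total RNA of quadriceps muscle was hybridised to 1-colour arrays from congenic C57Bl6J males aged 180 days. CTR mice were wild type, and AR113Q mice carried a knock-in androgen receptor with an expanded polyglutamine tract, the genetic lesion of spinal and bulbar muscular atrophy (SBMA). From 40 days of age the mice were fed either normal chow (NCD) or high-fat chow (HFD). There were 5 arrays of CTR and 5 of AR113Q mice on NCD, and 4 of CTR and 5 of AR113Q mice on HFD. The labels do not say that each array was a separate mouse, so the p-values measure the spread between these samples. All groups were whole muscle, in which fewer cells of a type and less RNA per cell cannot be told apart.

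Chaperones bind unfolded or partly folded proteins and let them refold, reach another compartment or be handed to degradation. Hsp70 proteins do this in cycles of ATP hydrolysis that J-domain proteins start and that nucleotide exchange factors such as the Hsp110 proteins close, while small heat shock proteins hold clients without ATP. When unfolded protein accumulates, heat shock factor 1 drives the cytosolic set and the unfolded protein response drives the set of the endoplasmic reticulum (ER). Several of these proteins, among them Dnajb1, Dnajb2, Dnajb6 and Hspb8, are known to limit the aggregation of polyglutamine proteins.

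A level below is the log2 of an array's processed signal minus that array's 75th percentile, so a level of 0 lies at the 75th percentile and 1 unit is a doubling. Differences are AR113Q minus CTR on that scale from the brightest tested probe of a gene, fitted with limma, and a gene was called at an adjusted p under 0.05 over all 32026 probes tested. The arrays had between 67.1% and 80.1% of their probes well above background. Each of the 5 slides held 3 or 4 arrays of different groups, so slide could be fitted as a block. Of 7 fast fibre genes, which include Acta1, Ckm and Myh4, the mean level per array was 7.54 to 8.29. All 7 were called lower in AR113Q on both diets, while 4 of 6 denervation genes on NCD and 5 of 6 on HFD were called higher. Of all genes tested, 7.96% were called higher and 9.11% lower on NCD, and 7.37% and 10.6% on HFD. The mean of 6 slow fibre genes varied widely. On NCD it ran from 0.24 to 4.92 in CTR and from 4.72 to 5.84 in AR113Q. On HFD it ran from -1.76 to 5.10 in CTR and from -0.30 to 4.42 in AR113Q, and none of the 6 was called on either diet. None of the macrophage, endothelial, Schwann cell, red blood cell, or white or brown adipocyte marker genes tested was called on either diet. The 3 brown adipocyte genes tested still had median differences of 2.07 on NCD and 1.18 on HFD, with a wide spread. Their mean level ran from -0.49 to 2.18 in CTR-NCD and from 0.83 to 5.23 in AR113Q-NCD. On HFD it ran from -0.67 to 0.56 in CTR and from -0.27 to 1.61 in AR113Q.

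The upstream sequences show which members carry the letters of known stress elements. RefSeq promoters (GRCm38.p6) matched 56 of the 69 members, and the 250 bases before the start were searched on both strands. A pair of heat shock element units, GAANNTTC or TTCNNGAA, lay before 13 members, 23.2% of those matched, against 14.5% of 27025 genes. A run of 3 units, GAANNTTCNNGAA or TTCNNGAANNTTC, which contains the pair, lay before Dnajb6, Hspd1 and Hspe1, 5.36% of members against 0.514% of genes. Hspd1 and Hspe1 share the same stretch, as given below, so it is counted for both. The ER stress element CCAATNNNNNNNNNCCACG lay before Hspa5, Hsp90b1 and Dnajc3, again 5.36% of members, against 0.13% of genes. A match is a description of these letters and not a site. The whole window is printed for the inducible Hsp70 of the cytosol and for the Hsp70 of the ER, with the element in capitals.
Hspa1a, chr17:34972157-34972406, minus strand: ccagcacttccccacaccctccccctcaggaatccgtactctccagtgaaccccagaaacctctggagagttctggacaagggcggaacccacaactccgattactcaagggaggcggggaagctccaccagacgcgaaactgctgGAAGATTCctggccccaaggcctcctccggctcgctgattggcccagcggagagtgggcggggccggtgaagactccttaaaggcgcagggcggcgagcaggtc
Hspa5, chr2:34771840-34772089, plus strand: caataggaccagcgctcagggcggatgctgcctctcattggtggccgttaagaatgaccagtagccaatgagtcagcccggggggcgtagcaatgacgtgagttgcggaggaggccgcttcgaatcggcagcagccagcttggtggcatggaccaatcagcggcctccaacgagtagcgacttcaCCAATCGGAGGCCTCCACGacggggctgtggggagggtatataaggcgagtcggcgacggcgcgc

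For 6 members that the results below return to, 30 bases around a heat shock element are printed, with the element in capitals. Dnaja1 and Hspb3 also hold a pair, which is not printed. The Hspe1 stretch is shared with Hspd1: these genes lie head to head, and the same bases on the other strand lie in 1 of the 2 RefSeq promoters of Hspd1.
Hspe1, chr1:55088053-55088082, plus strand: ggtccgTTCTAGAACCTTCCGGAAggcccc
Dnajb6, chr5:29735843-29735872, plus strand: cagctccgaGAATCTTCCGGAAcgctagac
Dnaja4, chr9:54699458-54699487, plus strand: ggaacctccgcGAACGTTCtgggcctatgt
Dnaja4, chr9:54699496-54699525, plus strand: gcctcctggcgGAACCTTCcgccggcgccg
Hspb1, chr5:135887791-135887820, plus strand: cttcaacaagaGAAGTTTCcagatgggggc
Hspb1, chr5:135887811-135887840, plus strand: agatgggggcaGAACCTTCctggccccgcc
Hspb6, chr7:30553170-30553199, plus strand: aagtaattattGAAGTTTCtaaataaggaa
Hsph1, chr5:149636351-149636380, minus strand: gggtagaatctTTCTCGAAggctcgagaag

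The question of the genotype comparison is how chaperone transcripts differ between AR113Q and CTR muscle on each diet. On NCD, 9 of 64 members were called higher in AR113Q and 11 lower, 14.1% and 17.2% of members. Of all 24741 genes tested, 7.96% were called higher and 9.11% lower. On HFD, 6 members were called higher and 16 lower, 9.38% and 25% of members, against 7.37% and 10.6% of all genes. The NCD and HFD comparisons share no array. The difference had the same sign in both for 53 of 64 members (82.8%), against 76.7% of all genes. In both comparisons 14 members were called in the same direction: Dnaja4, Dnajb3, Dnajc18, Dnajc30 and Hspa2 were higher, and Dnajb12, Dnajb2, Dnajb5, Dnajb6, Dnajb9, Dnajc15, Dnajc19, Dnajc21 and Dnajc28 were lower. The median difference of the members was -0.02 on NCD and -0.07 on HFD, close to the medians of -0.06 and -0.09 over all genes. At a fold of at least 1.5 or at most 0.6 beside the adjusted p, 3 members were higher and 1 lower on each diet, against 2.2% and 2.06% of genes on NCD and 2.68% and 2% on HFD.

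The number of calls depended on the scaling. With the median of each array subtracted instead, 5 members were called higher and 3 lower on NCD and 4 and 2 on HFD. Of all probes, 7.69% on NCD and 8.04% on HFD were then called. With normexp background correction 1 and 1 were called on NCD and 2 and 2 on HFD, and the share of all probes called fell from 17.3% to 2.71% on NCD and from 17.9% to 3.23% on HFD. On HFD the split of 6 higher and 16 lower became 11 and 10 with quantile normalisation and 9 and 10 in the authors' own values. Of all probes, these 2 called 18.1% and 17% on HFD. With normexp, Dnajb12 and Dnajc30 were still called on NCD, and Dnajb12, Dnajc18, Dnajc21 and Hspa2 on HFD. On NCD, 7 members were called lower without CTR-NCD 5, without AR113Q-NCD 1 or without AR113Q-NCD 3, and 6 were called higher without CTR-NCD 4. On HFD, 4 were called higher without CTR-HFD 4. The share of all probes called was not counted with an array left out, so these counts cannot be set against it.

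**Figure D1:**
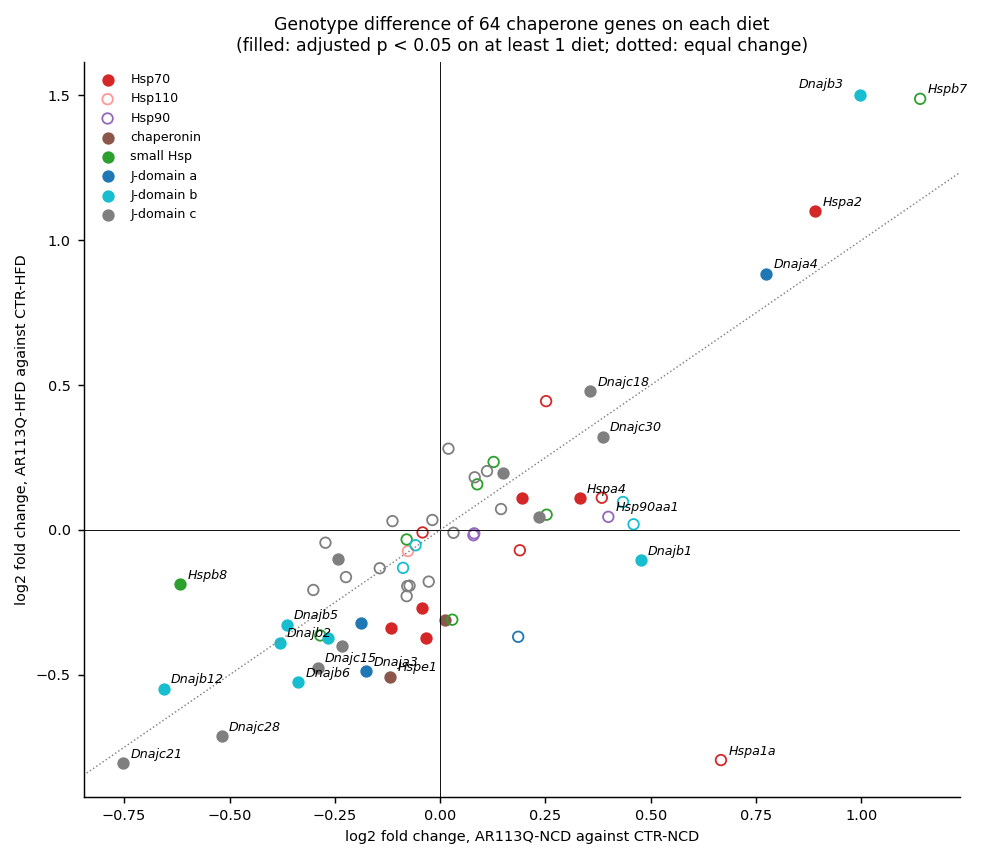
Each point is 1 of 64 chaperone genes, with the log2 fold change of AR113Q against CTR on NCD on the x axis and on HFD on the y axis, coloured by class. Filled points had an adjusted p under 0.05 on at least 1 diet; Hspa2 and Dnaja4 lie high on both axes, Dnajc21 and Dnajb12 low on both, and Hspa1a lies off the dotted line of equal change with values of 0.67 and -0.79.

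Among the Hsp70 proteins, Hspa2, best known for its part in male germ cells, was higher in AR113Q on both diets. Its levels were -1.24, -1.25, -1.04, -1.51 and -1.17 in CTR-NCD and -0.31, -0.17, -0.11, -0.57 and -0.59 in AR113Q-NCD. They were -1.61, -1.62, -0.76 and -1.71 in CTR-HFD and -0.14, -0.36, -0.55, -0.64 and 0.08 in AR113Q-HFD. The groups did not overlap on either diet, although CTR-HFD 3 lay well above the other CTR-HFD arrays. The fold was 1.85 on NCD (log2 0.89 ± 0.18 SE, adjusted p = 0.00211, n = 5 and 5) and 2.14 on HFD (1.10 ± 0.19 SE, adjusted p = 0.00059, n = 4 and 5). The slow fibre mean of CTR-HFD 3 was 5.10, against -1.76 to 1.31 in the other 3 CTR-HFD arrays, and the part of slow fibre content in the Hspa2 result was not tested.

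Hspa4, an Hsp110-type exchange factor for Hsp70, was 1.26-fold higher on NCD, by 0.33 ± 0.08 SE (adjusted p = 0.00784), with levels of 3.55 to 3.75 in CTR-NCD and 3.82 to 4.07 in AR113Q-NCD. That call rested on its brightest probe. The 2 dimmer probes gave -0.04 and -0.21 on NCD, neither of them called, and the mean over the 3 probes gave 0.03. On HFD the brightest probe gave 0.11 (adjusted p = 0.439). The related Hsph1 was not called, at -0.08 on NCD and -0.07 on HFD. Hspa14, a ribosome-associated Hsp70, was called on NCD only, at 0.19 (adjusted p = 0.0297), and gave 0.11 on HFD.

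Hspa5, the Hsp70 of the ER lumen (BiP), was lower on HFD. Its levels in CTR-HFD were 4.55, 4.69, 4.69 and 4.53, and in AR113Q-HFD 4.19, 4.26, 4.22, 4.29 and 4.43, with no overlap, a difference of -0.34 ± 0.07 SE (adjusted p = 0.00166). On NCD the ranges of 4.47 to 4.58 and 4.28 to 4.52 overlapped, and the difference of -0.12 was not called. The HFD call was lost under each of the 4 other scalings or background corrections: -0.20 with quantile normalisation, -0.27 with the array median, -0.35 with normexp and -0.19 in the authors' values.

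Hspa8, the constitutive Hsp70 of the cytosol, had a brightest probe at -0.27 on HFD with an adjusted p of 0.0485, which was 0.054 with slide as a block, and the call was lost when any of 15 of the 19 arrays was left out. Its 2 other bright probes gave -0.03 and 0.17 on HFD. Hspa9, the mitochondrial Hsp70, is described with the mitochondrial genes.

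The inducible Hsp70 was measured by a single probe whose accessions include both Hspa1a and Hspa1b, a pair of genes whose upstream windows differ at 3 of 250 bases, so the 2 cannot be told apart here. It varied more within groups than between them. The levels were 2.43, 1.35, 1.11, 0.32 and -0.54 in CTR-NCD and 0.40, 3.21, 1.28, 1.59 and 1.52 in AR113Q-NCD. They were 1.19, 1.46, 2.51 and -0.85 in CTR-HFD and -0.15, 0.27, 0.11, 0.93 and 0.27 in AR113Q-HFD. CTR-HFD 4 was the lowest of the 19 arrays and AR113Q-NCD 2 the highest, and the genotype groups overlapped on both diets. The differences of 0.67 ± 0.62 SE on NCD and -0.79 ± 0.65 SE on HFD were not called (adjusted p = 0.544 and 0.472).

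Hspa1a was set against 5 other inducible or constitutive chaperones over the 19 arrays, as deviations from group means. For Hsp90aa1, the stress-inducible cytosolic Hsp90, Pearson's r was 0.72 (permutation p = 0.00154, adjusted over the 5 relations 0.0077) and Spearman's rho 0.59 (p = 0.0137, adjusted 0.0687). For Dnajb1, the class B cochaperone of inducible Hsp70, r was 0.69 (permutation p = 0.00998, adjusted 0.0249) and rho 0.54 (p = 0.0398, adjusted 0.0996). The rank form of neither relation passed the adjustment. Without the 2 arrays farthest from the median of Hspa1a, r was 0.64 for Hsp90aa1 and 0.50 for Dnajb1, and with slide removed as well as group it was 0.74 and 0.68. The relations with Hspa8 (r = 0.36, permutation p = 0.218, rho = 0.39, p = 0.143), Hspa5 (r = 0.34, p = 0.203, rho = 0.36, p = 0.164) and Hsph1 (r = 0.11, p = 0.707, rho = 0.09, p = 0.753) did not pass.

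**Figure D2:**
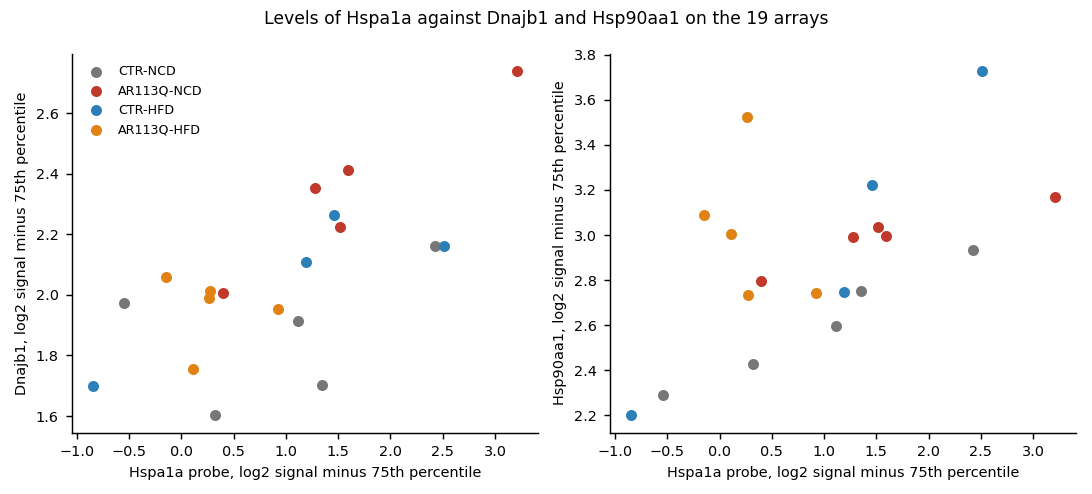
Each point is 1 of the 19 arrays, with the level of the Hspa1a probe on the x axis and of Dnajb1 (left) or Hsp90aa1 (right) on the y axis, all in log2 units relative to the array's 75th percentile, coloured by group. The Hspa1a level runs from -0.85 to 3.21, and the 5 AR113Q-HFD arrays lie between -0.15 and 0.93.

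Dnajb1 itself was higher in AR113Q on NCD. The CTR-NCD levels were 2.16, 1.70, 1.91, 1.60 and 1.97, and the AR113Q-NCD levels 2.005, 2.74, 2.35, 2.41 and 2.23. The groups overlapped through CTR-NCD 1 and AR113Q-NCD 1, and the difference was 0.48 ± 0.14 SE, a fold of 1.39 (adjusted p = 0.0231). It was not called without CTR-NCD 2, CTR-NCD 4 or AR113Q-NCD 2 (0.43, 0.41 and 0.38). On HFD the difference was -0.10 ± 0.15 SE (adjusted p = 0.70), and the change of the genotype difference with diet was -0.58 ± 0.20 SE, which did not pass (adjusted p = 0.937). No 250-base window of Dnajb1 held a heat shock element pair.

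The Hsp90 class was not called on either diet. Hsp90ab1, the constitutive cytosolic form, had levels of 7.01 to 7.29 in CTR-NCD and 7.13 to 7.34 in AR113Q-NCD, a difference of 0.08, and on HFD -0.02. Under quantile normalisation it was called higher on both diets, at 0.23 and 0.24, and likewise in the authors' values at 0.26 and 0.29, so its direction on HFD turned with the scaling. Hsp90aa1 gave 0.40 ± 0.22 SE on NCD and 0.05 on HFD. Hsp90b1, the ER form, gave 0.08 and -0.01.

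Small heat shock proteins are abundant in striated muscle, where several protect the sarcomere. Of 8 tested, Hspb8, which works with Bag3 to send clients to autophagy, was the one called, lower on NCD. With slide as a block, Hspb7 (1.67, adjusted p = 0.0153), Hspb9 (-0.46, adjusted p = 0.0416) and Hspb11 (0.24, adjusted p = 0.0425) were called too, all on HFD. The levels were 5.89, 5.70, 5.56, 5.91 and 6.14 in CTR-NCD and 5.26, 5.35, 5.14, 5.19 and 5.17 in AR113Q-NCD. The groups did not overlap, and the difference was -0.62 ± 0.11 SE, a fold of 0.65 (adjusted p = 0.000934), called with each of the 19 arrays left out in turn and lower in AR113Q on 5 of 5 slides. With normexp this call was lost (adjusted p = 0.144). On HFD the CTR levels of 5.57, 5.68, 5.20 and 5.83 spanned the AR113Q levels of 5.34, 5.41, 5.31, 5.37 and 5.48, and the difference of -0.19 ± 0.12 SE was not called (adjusted p = 0.328). The change of the genotype difference with diet was 0.43, and its adjusted p was 1.

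Hspb7, a small heat shock protein of heart and skeletal muscle, had the largest difference of its class on both diets. The levels were 3.05, 2.83, 3.43, 1.29 and 1.07 in CTR-NCD and 3.59, 4.09, 3.76, 2.70 and 3.22 in AR113Q-NCD. They were 1.70, 1.45, 3.51 and 0.82 in CTR-HFD and 3.56, 3.29, 3.03, 3.03 and 3.88 in AR113Q-HFD. The CTR arrays fell into a high and a low set on each diet, and the AR113Q arrays all lay at 2.70 or above. The differences of 1.14 ± 0.50 SE and 1.49 ± 0.53 SE were not called (adjusted p = 0.14 and 0.0626). With slide as a block the HFD difference was called, as given above, and without CTR-HFD 3 it was 2.03 (adjusted p = 0.0069). It was also called without CTR-NCD 5, an array that enters this comparison only through the shared variance.

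Across arrays Hspb7 and Hspb6 moved with the slow fibre genes. As deviations from group means over 19 arrays, Pearson's r with the slow fibre mean was 0.82 and Spearman's rho 0.82 for Hspb6, and 0.73 and 0.75 for Hspb7. Without the 2 arrays farthest from the median, r was 0.78 and 0.56, and with slide removed as well 0.83 and 0.80. These rho are the highest of 64 such relations, one for each member, and are given as a description, without a p. The relations were computed after the values had been seen. Hspb6, a phosphorylation-regulated partner of contractile proteins, did not differ by genotype beyond its spread, at 0.03 on NCD and -0.31 ± 0.20 SE on HFD (adjusted p = 0.948 and 0.343). The other muscle members gave -0.08 and -0.03 for Hspb2, 0.09 and 0.16 for Hspb3, and 0.25 and 0.05 for Hspb1 on NCD and HFD, none of them called. Hspb3 was called higher on HFD with quantile normalisation (0.28) and in the authors' values (0.29). The direction of Hspb2 and Hspb6 on HFD turned with quantile normalisation, and that of Hspb1 without CTR-HFD 4.

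**Figure D3:**
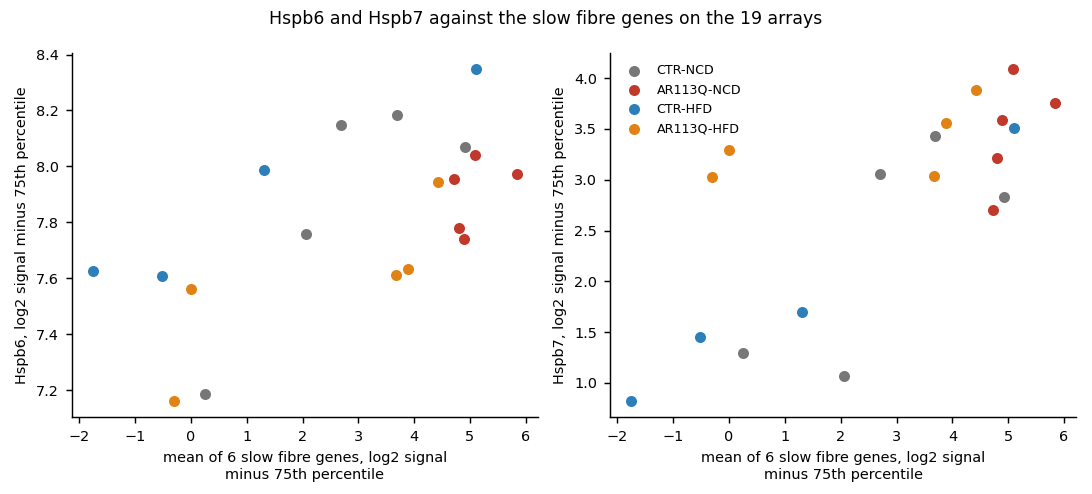
Each point is 1 of the 19 arrays, with the mean level of 6 slow fibre genes on the x axis and the level of Hspb6 (left) or Hspb7 (right) on the y axis, in log2 units relative to the array's 75th percentile, coloured by group. The 5 arrays with Hspb7 under 2 are CTR arrays whose slow fibre mean is 2.05 or less, while 2 AR113Q-HFD arrays with a slow fibre mean near 0 have Hspb7 levels of 3.03 and 3.29.

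Class A J-domain proteins resemble the bacterial DnaJ in full length. Dnaja4, a cytosolic and stress-inducible member, was higher on both diets. The levels were 4.53, 4.33, 4.57, 3.74 and 3.85 in CTR-NCD and 4.89, 5.31, 4.93, 4.87 and 4.88 in AR113Q-NCD, without overlap. On HFD the CTR levels of 4.14, 4.03, 4.78 and 3.60 overlapped the AR113Q levels of 5.21, 5.02, 4.77, 4.71 and 5.39 through CTR-HFD 3. The fold was 1.71 on NCD (0.77 ± 0.21 SE, adjusted p = 0.0163) and 1.85 on HFD (0.88 ± 0.22 SE, adjusted p = 0.0101). A dimmer probe of Dnaja4 gave 0.72 and 0.89 but was not called (adjusted p = 0.169 and 0.0974), and the mean over the 2 was not called on NCD. Over arrays, r with the slow fibre mean was 0.73 for Dnaja4, 0.71 for Hspa2 and -0.73 for Dnajb12. It was 0.79 for Hspa4l, an Hsp110-type gene not called on either diet, and -0.59 for Hspb8, or -0.29 without the 2 arrays farthest from the median. The part of slow fibre content in the differences of these genes was not tested.

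Dnaja1, which serves Hspa8 in the cytosol, was not called and pointed in opposite directions, at 0.19 on NCD and -0.37 ± 0.13 SE on HFD (adjusted p = 0.362 and 0.06), with the smallest p of the members for a change of the genotype difference with diet (-0.55 ± 0.18 SE, adjusted p = 0.918). Dnaja2 was called lower on HFD at -0.32 (adjusted p = 0.0357), a call lost when any of 6 arrays was left out, and its second probe was called on both diets at -0.45 and -0.58.

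**Figure D4:**
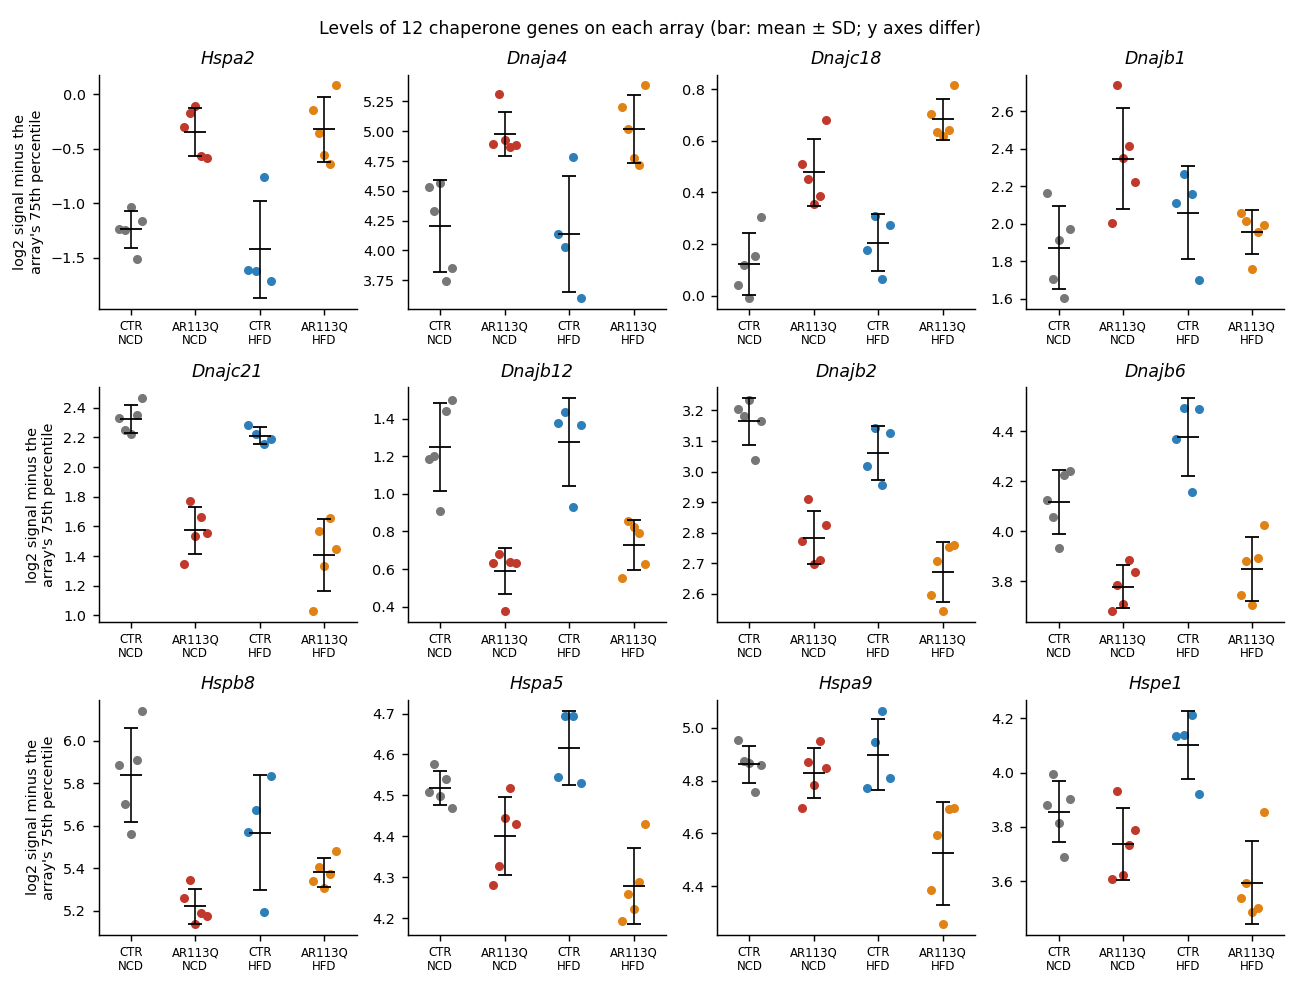
Level of 12 chaperone genes on each array, in log2 units relative to the array's 75th percentile, by genotype and diet; points are arrays, the horizontal mark and bar the mean ± SD of 4 or 5 arrays, and the y axes differ. Hspa2 and Dnajc18 are separated upward and Dnajc21, Dnajb12, Dnajb2 and Dnajb6 downward in AR113Q on both diets. Hspa5, Hspa9 and Hspe1 are separated downward on HFD only, and on NCD only Hspb8 is separated downward and Dnaja4 upward.

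Of 11 class B members tested, 2 were called higher and 5 lower on NCD, where 7.96% and 9.11% of all genes were, and 1 and 5 on HFD, against 7.37% and 10.6%. Dnajb2, a neuronal and muscle cochaperone that hands clients to the proteasome, had levels of 3.20, 3.18, 3.23, 3.04 and 3.17 in CTR-NCD against 2.77, 2.91, 2.70, 2.71 and 2.83 in AR113Q-NCD. On HFD they were 3.02, 3.14, 2.96 and 3.13 against 2.60, 2.71, 2.54, 2.75 and 2.76. No arrays overlapped on either diet, and the differences were -0.38 ± 0.06 SE (adjusted p = 0.000551) and -0.39 ± 0.07 SE (adjusted p = 0.000711). A second probe gave -0.44 and -0.56, both called. The calls were lost on both diets with the array median (-0.32 and -0.32) and with normexp (-0.13 and -0.39).

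Dnajb6, a suppressor of polyglutamine aggregation in which missense mutations cause a limb-girdle muscular dystrophy, was lower on both diets at the 2 probes of 1 of its transcripts. The levels were 4.13, 4.06, 3.93, 4.23 and 4.24 in CTR-NCD, 3.68, 3.79, 3.71, 3.89 and 3.84 in AR113Q-NCD, 4.37, 4.49, 4.16 and 4.49 in CTR-HFD, and 3.75, 3.88, 3.71, 3.89 and 4.03 in AR113Q-HFD. The groups did not overlap, with differences of -0.34 ± 0.08 SE (adjusted p = 0.00947) and -0.53 ± 0.09 SE (adjusted p = 0.000508). The probe lies at chromosome 5, 30112855 to 30112911 in mm9, and a probe 6 bases further on gave -0.36 and -0.54, both called. The 2 probes near 30080099 and 30077544, which match other transcripts, gave 0.05 and 0.07 on NCD and 0.00 and -0.05 on HFD, with no call. The mean over the 4 probes was not called on NCD (-0.14, adjusted p = 0.276). The calls of the brightest probe were lost on both diets with the array median and with normexp.

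Dnajb12, a J-domain protein of the ER membrane that acts in ER-associated degradation, was lower on both diets. The levels were 1.19, 1.20, 0.91, 1.44 and 1.499 in CTR-NCD, 0.63, 0.68, 0.38, 0.64 and 0.63 in AR113Q-NCD, 1.38, 1.43, 0.93 and 1.37 in CTR-HFD, and 0.55, 0.85, 0.82, 0.79 and 0.63 in AR113Q-HFD. No arrays overlapped, and the differences were -0.66 ± 0.12 SE (adjusted p = 0.000837) and -0.55 ± 0.12 SE (adjusted p = 0.00496). It was called on NCD under every scaling tried, normexp included, and on HFD under all but the subtraction of each array's median (-0.48, adjusted p = 0.0797).

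Dnajb5 gave -0.36 (adjusted p = 0.0164) on NCD and -0.33 (adjusted p = 0.0392) on HFD, and its second probe -1.001 and -0.91, both called. The HFD call of the brightest probe was lost when any of 7 arrays was left out, under each of the 4 other scalings or background corrections (-0.18 to -0.32), and when the HFD groups were fitted alone. Dnajb9, an ER chaperone that the unfolded protein response induces, gave -0.27 (adjusted p = 0.048) and -0.37 (adjusted p = 0.00987), and the NCD call was lost when any of 16 of the 19 arrays was left out. Dnajb3, mainly a testis gene, lay near background, well above it on 3 of 5 CTR-NCD, 5 of 5 AR113Q-NCD, 1 of 4 CTR-HFD and 5 of 5 AR113Q-HFD arrays. Its means rose from -6.47 to -5.47 on NCD (adjusted p = 0.0355) and from -6.37 to -4.87 on HFD (adjusted p = 0.00419). The NCD call was lost when any of 6 arrays was left out, and with normexp neither was called and the values were -0.93 and 0.43.

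Class C proteins share only the J domain and serve many compartments. Dnajc21, which acts with Hsp70 in the maturation of the large ribosomal subunit, had the lowest difference of all members on both diets. The levels were 2.33, 2.25, 2.23, 2.35 and 2.47 in CTR-NCD and 1.35, 1.77, 1.54, 1.66 and 1.55 in AR113Q-NCD. They were 2.29, 2.22, 2.15 and 2.19 in CTR-HFD and 1.03, 1.57, 1.33, 1.66 and 1.45 in AR113Q-HFD. The lowest CTR array lay above the highest AR113Q array on both diets, and the folds were 0.59 (-0.75 ± 0.10 SE, adjusted p = 8.47e-05) and 0.57 (-0.80 ± 0.11 SE, adjusted p = 7.75e-05). A second probe gave -0.62 and -0.79, both called, and another, dim probe -0.08 on NCD and -0.54 on HFD, of which the latter was called (adjusted p = 0.0439). Its r with the slow fibre mean was -0.19.

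Dnajc18, a member of the ER membrane, was higher on both diets with levels on NCD of -0.01 to 0.31 in CTR and 0.36 to 0.68 in AR113Q, and on HFD of 0.06 to 0.31 in CTR and 0.62 to 0.82 in AR113Q. The differences were 0.36 ± 0.08 SE (adjusted p = 0.00361) and 0.48 ± 0.08 SE (adjusted p = 0.000544). The NCD call of Dnajc18 was lost with the array median and with normexp, while its HFD call was kept with both. Dnajc7, which holds clients between Hsp70 and Hsp90, was called higher on NCD (0.24, adjusted p = 0.0122) and not on HFD (0.04). Dnajc2, a ribosome-bound member, was called lower on NCD (-0.24, adjusted p = 0.0446), and Dnajc8, a nuclear member linked to splicing, higher on HFD (0.20, adjusted p = 0.0389). These 3 and Hspa14 were called but fell outside the rule for named genes and were chosen after their values were seen.

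Members were also grouped by compartment. Of 9 members placed in mitochondria, 7 were called lower and 1 higher on HFD, with a median of -0.40, beside 10.6% lower and 7.37% higher over all genes. On NCD 3 were called lower and 1 higher, with a median of -0.12, beside 9.11% and 7.96% over all genes. Hspe1, the co-chaperonin of Hspd1, had levels of 4.14, 4.14, 4.21 and 3.92 in CTR-HFD and 3.54, 3.59, 3.49, 3.501 and 3.86 in AR113Q-HFD, a difference of -0.51 ± 0.09 SE (adjusted p = 0.00103) without overlap. Its second probe gave -0.57, also called. On NCD its ranges of 3.69 to 3.99 and 3.61 to 3.93 overlapped, with -0.12 (adjusted p = 0.425).

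Hspd1, the chaperonin whose promoter shares the printed element with Hspe1, had levels of 4.604, 4.73, 4.89 and 4.66 in CTR-HFD and 4.41, 4.44, 4.22, 4.32 and 4.66 in AR113Q-HFD. Only the last of these touched the CTR range, and the difference was -0.31 ± 0.08 SE (adjusted p = 0.0118), against 0.01 on NCD. Hspa9 drives import and folding in the matrix, and its levels of 4.77, 4.95, 5.06 and 4.81 in CTR-HFD did not overlap those of 4.38, 4.59, 4.26, 4.69 and 4.70 in AR113Q-HFD, a difference of -0.37 ± 0.09 SE (adjusted p = 0.0093), against -0.03 on NCD.

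Dnaja3, the J-domain partner of Hspa9, gave -0.49 on HFD (adjusted p = 0.000409) and -0.17 on NCD (adjusted p = 0.135). Dnajc15 and Dnajc19, which belong with the import motor of the inner membrane, gave -0.48 and -0.40 on HFD (adjusted p = 0.00107 and 0.00128) and -0.29 and -0.23 on NCD (adjusted p = 0.0214 and 0.0307). The NCD call of Dnajc15 was lost without CTR-NCD 5, AR113Q-NCD 1 or AR113Q-NCD 3, and that of Dnajc19 when any of 6 arrays was left out. Dnajc28 gave -0.71 on HFD and -0.52 on NCD, both called. The NCD call of Dnajc28 was lost with the array median and with normexp. Dnajc30, a protein tied to the respiratory chain, gave 0.32 on HFD and 0.39 on NCD, both called. Its HFD call was lost without CTR-HFD 4 (0.26, adjusted p = 0.0598). Dnajc11 was not called on either diet.

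The change of the genotype difference with diet did not pass for any member. For Hspe1 it was -0.39 ± 0.13 SE (adjusted p = 0.924) and for Hspd1 -0.32 ± 0.11 SE (adjusted p = 0.937), so a larger fall on HFD than on NCD was not shown. On HFD the calls of Hspa9 and Hspd1 were lost with quantile normalisation (-0.23 and -0.17, adjusted p = 0.0797 and 0.138) and in the authors' values. Of the 7 mitochondrial genes called lower on HFD, all except Dnajc28 lost the call with the median of each array. With normexp all 7 lost it, Dnajc28 included.

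**Figure D5:**
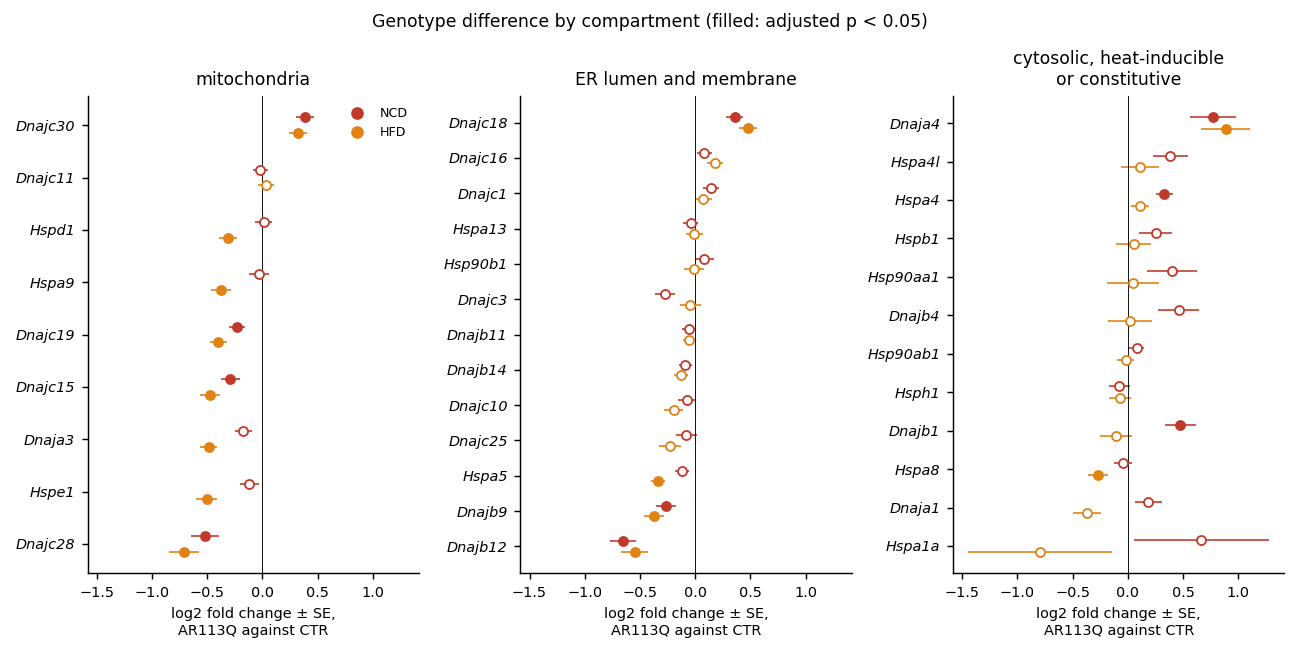
Log2 fold change ± SE of AR113Q against CTR on NCD (red) and HFD (orange) for the 9 mitochondrial, 13 ER and 12 cytosolic members; filled points had an adjusted p under 0.05. Filled HFD points of 7 mitochondrial genes lie left of 0, those of the ER set are Dnajb12, Dnajb9 and Hspa5 to the left and Dnajc18 to the right, and in the cytosol Dnaja4 and Hspa8 are filled on HFD.

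Of 13 ER members, 1 was called higher and 2 lower on NCD, and 1 higher and 3 lower on HFD, with medians of -0.08 and -0.05. Over all genes 7.96% were called higher and 9.11% lower on NCD, and 7.37% and 10.6% on HFD, and the same shares apply to the counts of cytosolic members. Of 12 cytosolic members that respond to or mediate heat shock, 3 were called higher on NCD (Dnaja4, Dnajb1 and Hspa4) and none lower, and on HFD Dnaja4 was higher and Hspa8 lower. Their median was 0.36 on NCD, where 10 of 12 values were above 0, and 0.00 on HFD, where 6 of 12 were. These lists were drawn up with earlier results of these data known, and the counts describe them.

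Partners outside the named classes moved in both directions. Of 32 heat shock factors and cochaperones tested, 5 were called higher and 6 lower on NCD, and 4 and 8 on HFD, beside 7.96% and 9.11% of all genes on NCD and 7.37% and 10.6% on HFD. Hsf1, the main heat shock transcription factor, was lower on both diets, at -0.46 (adjusted p = 0.000344) and -0.42 (adjusted p = 0.00105), and Hsf2 higher by 0.33 and 0.32, both called. Bag3, the partner of Hspb8, was higher by 0.61 (adjusted p = 0.00858) and 0.56 (adjusted p = 0.0187), and Unc45b, the myosin chaperone of muscle, lower, at -0.66 and -0.78, both called. The Hsp90 cochaperones Fkbp4, Ppid and Ptges3 were called lower on both diets, at -0.38, -0.39 and -0.23 on NCD and -0.37, -0.36 and -0.47 on HFD. Tomm34, which passes precursors to mitochondrial import, was higher at 0.30 and 0.36, both called.

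Of 24 genes of the ER unfolded protein response, 2 were called higher and 2 lower on NCD, and 4 and 4 on HFD, against the same shares of all genes (7.96% and 9.11% on NCD, 7.37% and 10.6% on HFD). Ddit3, the CHOP factor, was higher by 0.64 and 0.60, and Atf6, a sensor of ER stress, by 0.24 and 0.44, all 4 values called. Xbp1, the factor made active by splicing, was lower, at -0.31 and -0.56, both called, which a probe cannot assign to a spliced form. Of 14 genes of the cytosolic chaperonin and prefoldin, 1 was called higher and 1 lower on NCD, and 2 higher and 0 lower on HFD. Cct4 was called higher on both diets (0.22 and 0.32), Pfdn1 lower on NCD (-0.26, and -0.13 on HFD) and Cct3 higher on HFD (0.25, and 0.13 on NCD). Of 11 other mitochondrial chaperones and proteases, 1 was called lower on NCD and 4 on HFD, and Hscb, the J-domain protein of iron-sulphur cluster assembly, was lower on both (-0.35 and -0.45). Neither alpha-crystallin was called.

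No member was called for diet. Between CTR-HFD and CTR-NCD, limma put 8 members higher and 3 lower below an unadjusted p of 0.05, beside 1299 and 770 of all 24741 genes, and Dnajb6 had the smallest adjusted p, 0.453 (0.26 ± 0.09 SE). Between AR113Q-HFD and AR113Q-NCD it gave 2 and 6, beside 781 and 862 of all genes, with a smallest adjusted p of 0.464 for Hspa9 (-0.31 ± 0.09 SE), and Hspa12b had -0.27 (adjusted p = 0.529). For the change of the genotype difference with diet it gave 1 and 8, beside 438 and 705 of all genes, with a smallest adjusted p of 0.918. Over all genes 0% were called in the CTR diet comparison and for the interaction, and 0% higher and 0.0202% lower in the AR113Q diet comparison. The arrays did not overlap for 2 members higher and 0 lower between the CTR diets, against 1.52% and 1.12% of all genes, and for 2 and 2 between the AR113Q diets, against 0.913% and 1.11%. These comparisons share arrays with those of genotype.

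With slide as a block, 9 members were called higher and 13 lower on NCD and 9 and 18 on HFD, and over all genes 9.62% and 15.1% on NCD and 9.02% and 19.9% on HFD. Within slides, each of the 9 members lower on both diets was lower in AR113Q on 5 of 5 slides on NCD and on 4 of 4 on HFD, except Dnajb5, on 3 of 4. The arrays did not overlap for 10 members higher and 8 lower on NCD, against 7.11% and 8.07% of all genes, and for 7 and 13 on HFD, against 6.89% and 8.82%.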

How the data were processed

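The deposited files are the scanner output of 19 Agilent 1-colour arrays (Agilent Feature Extraction 10.7.3.1, per the labels), with linear intensity per spot as the authors' software corrected it for background, and a table of the authors' normalised log2 values for each array, which served as an alternative only (the normalisation and filter behind it are not given in the sources used here). Probe coordinates in the files are mm9. Control and outlier spots were left out, log2 processed signals were centred on the array's 75th percentile, and the spots of a probe were averaged. The test took the 32026 of 39429 probes for which 4 or more arrays had a share of 0.5 or more of the spots well above background, and a gene was read from its brightest tested probe. limma 3.58.1 in R 4.3.3 fitted the 4 groups together, with Benjamini-Hochberg adjustment over all tested probes, and was tested on simulated data. The number of arrays limits the precision. Slides were taken from the file headers. Correlations used 100000 permutations within groups. Named genes were those called in either genotype comparison (the 20 with the largest mean change), 20 chaperones always named (Hspa1b had no probe of its own), and the 2 with the smallest p in each diet comparison, 36 in all. The members and lists were chosen with earlier results of these data known. Alternatives were other scalings, background corrections, filters, blocks, array weights, a trended variance, 2-group fits, the mean over a gene's probes, and each array left out.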

Additional observations from a re-analysis of the deposited data

Results flagged for a closer look

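Among 144 combinations of a named gene and a group, 8 had 1 array apart from the rest by Dixon's criterion, and chance flags about 1 in 20. Of these, 3 were CTR-HFD 3, with Hspa2 at -0.76 (other arrays down to -1.71), Dnajb12 at 0.93 (others up to 1.43) and Hspb3 at 3.06 (others up to 3.57). CTR-HFD 4 was high for Hspb2 at 5.08, AR113Q-NCD 2 high for Dnaja4 at 5.31, AR113Q-NCD 3 low for Dnajb12 at 0.38, CTR-NCD 1 high for Dnajb9 at 1.90, and CTR-NCD 4 low for Dnajc28 at -1.57. The slow fibre mean of CTR-HFD 3 was 5.10, and its part in these values was not tested.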

How the results depend on the processing

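Of the called differences of genes that the naming rule chose, 12 of 17 on NCD and 17 of 21 on HFD stayed called with each array left out in turn; Dnajc2, Dnajc7, Dnajc8 and Hspa14 were not examined gene by gene in this way. Over all alternatives for single genes, 2006 values kept direction and side of the threshold, 149 lost the call, 17 gained one and 58 changed sign. Leaving out 1 array gave 6 to 10 members higher and 7 to 12 lower on NCD, and 4 to 8 and 13 to 16 on HFD. The share of all probes called was not counted in those fits, so these ranges cannot be read as particular to the members. With the array median subtracted the counts were 5 higher and 3 lower on NCD and 2 lower on HFD, with normexp 1 and 1 on NCD and 2 and 2 on HFD, with quantile normalisation 11 higher and 10 lower on HFD, and in the authors' values 10 lower on HFD. The array median called 7.69% of all probes on NCD and 8.04% on HFD, and normexp 2.71% and 3.23%. On HFD the share was 18.1% with quantile normalisation and 17% in the authors' values. Normexp moved the median of all probes on NCD from -0.06 to -0.57, and that of the members from -0.02 to 0.16. The cause was not tested.

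The sign turned for these genes, in log2 units. With normexp the differences were Dnaja2 0.076, Dnaja3 0.088, Dnajb3 -0.93, Dnajc15 0.016, Hspa5 0.18, Hspa8 0.27, Hspa9 0.25, Hspb2 0.20, Hspe1 0.13 and Hsph1 0.20 on NCD. With quantile normalisation the differences were Hspa8 0.10, Hspa9 0.073, Hspb2 0.024 and Hsph1 0.0100 on NCD, and Hsp90ab1 0.24, Hsp90b1 0.10, Hspb2 0.095, Hspb6 0.052 and Hsph1 0.067 on HFD. With the array median the differences were Hspa8 0.015 and Hspa9 0.026 on NCD, and Hsp90ab1 0.047, Hsp90b1 0.053 and Hspb2 0.032 on HFD. In the authors' values the differences were Hspa5 0.013, Hspa8 0.19 and Hspa9 0.073 on NCD, and Hsp90ab1 0.29, Hsp90b1 0.13, Hspa8 0.17, Hspb2 0.12, Hspb6 0.037 and Hsph1 0.013 on HFD. With the mean over probes the differences were Hspa12b -0.00052 and Hspa8 0.041 on NCD, and Hsp90aa1 -0.13 on HFD. With array weights the differences were Hspb6 -0.062 on NCD, and Hsp90b1 0.0073 on HFD. With 1 array left out the range on NCD was -0.062 to 0.00080 for Hspa9, -0.14 to 0.11 for Hspb6 and -0.017 to 0.031 for Hspd1. With 1 array left out the range on HFD was -0.21 to 0.30 for Hsp90aa1, -0.069 to 0.022 for Hsp90ab1, -0.088 to 0.049 for Hsp90b1, -0.14 to 0.0076 for Hspa12b, -0.068 to 0.15 for Hspb1 and -0.071 to 0.014 for Hspb2.

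Same-numbered arrays of different groups had correlations of their deviations from -0.21 to 0.56, with a median of 0.25. Arrays of different groups on the same slide had a median of 0.27, and those on different slides -0.09. Apart from CTR-HFD 4, same-numbered arrays lay on the same slide, so replicate number and slide largely cannot be told apart. The main fit took neither as a block. With the replicate number as a block, 9 members were called higher and 13 lower on NCD and 6 and 19 on HFD, and 0 for diet or interaction. Of all probes, 22.4% on NCD and 21.9% on HFD were then called. With slide as a block the shares were 24.5% and 28.3%, and without a block 17.3% and 17.9%. The 0 members called for diet and interaction were 0 under every alternative run.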
